A study of Homo sapiens with 28 samples.

Results

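This account follows GRB10 and the insulin-like growth factor (IGF) axis in AN3CA, a human endometrial carcinoma cell line. The axis is represented here by 10 genes of the 26346 symbols counted in the files. They are the signalling adaptor GRB10, the receptors IGF1R, IGF2R and INSR, and the IGF binding proteins IGFBP2, IGFBP3, IGFBP4, IGFBP5, IGFBP6 and IGFBP7. They were chosen by name, with earlier results of these data in view: GRB10 was picked because it was among the genes with the largest falls when wild-type ARID1A or ARID1B was expressed. The comparisons with the empty vector are therefore given for these genes as descriptions, without p-values. After a filter on low counts 9 of the 10 could be tested. IGFBP7 could not, with 3 reads in total over all 28 libraries. IGFBP3, IGFBP4 and IGFBP5 passed that filter through the groups in which they were high.

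The series' title concerns the part that localised condensation plays in transcriptional activation by these proteins' complex. The study measured polyadenylated RNA by sequencing in AN3CA cells given an empty vector (4 libraries) or 1 of 12 expression constructs (2 libraries each). ARID1A and ARID1B are alternative subunits of the cBAF chromatin remodelling complex. Of the 7 ARID1A constructs 1 was the wild-type protein (WT) and 2, CBR and delIDR1, were truncations; the others were DBDmut, which carries a mutated ARID domain, DDX4, a hybrid with the disordered region of DDX4, AQGscram, labelled as an AQG scramble, and a mutant given as 42YS in the genotype field and with the same characters in another order in the titles. The 5 ARID1B constructs comprised the wild-type protein (WT), M2 (S320_G327del), A457_G461del, Block13del and Block9del. All groups shared the same line, the same serum-containing medium and no treatment. The labels do not say whether libraries of a group came from separate cultures, so the p-values measure library-to-library spread, which may be technical. Nor do they say which promoter drives the constructs or whether a line is 1 clone.

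The libraries held 16.57 to 27.87 M reads on genes. They fell into 3 technical sets by the share of reads on the expected strand. Set 1, with 84.5 to 87.8%, held empty vector replicates 1 and 2 with the ARID1A constructs WT, DBDmut, CBR and delIDR1. Set 2, with 98.1 to 98.6%, held empty vector replicates 3 and 4 with M2, ARID1B WT and the DDX4 hybrid. Set 3, with 96.7 to 97.9%, held AQGscram, 42YS, A457_G461del, Block13del and Block9del and no empty vector, so that for these 5 constructs set and construct cannot be told apart when they are compared with the empty vector. The 2 empty vector pairs differed widely from each other: 58.5% of the 14220 genes tested passed an adjusted p of 0.05 between them. Among the 9 genes tested here 6 did so, all of them lower in replicates 3 and 4. In the fit of all 13 groups the 2 pairs form 1 group. The spread behind each p-value of that fit therefore holds the difference between the pairs as well as that between libraries of a group. Comparisons with the empty vector are therefore given against all 4 libraries, against the pair of the same set (own pair), or both, as stated with each. The targeted genes checked the labels: ARID1A reads were above the empty vector range in 6 of 7 ARID1A groups, the exception being AQGscram (247 ± 52.6 counts per M reads, CPM, SD, n = 2, against 288 ± 12.5, n = 4, in the empty vector), and ARID1B reads were above it in all 5 ARID1B groups. Reads from the construct and from the cell's own gene are counted together. Mean ARID1B levels differed between its constructs: 4250 CPM with M2, 3597 with WT, 2236 with A457_G461del, 883 with Block13del and 344 with Block9del. Mean ARID1A levels in the ARID1A groups ran from 247 CPM with AQGscram to 1017 with CBR. The part of these levels in the results was not tested. Of the endometrial markers, HOXA10 was present in every library (5.83 to 22.7 CPM), while the hormone receptor genes ESR1 and PGR each had 0 reads in 27 of 28 libraries. The leukocyte gene PTPRC and the fibroblast genes DCN and LUM were at or below 0.0466 CPM, whereas COL1A2 stood at 1926 to 3721 CPM. Other markers moved with the constructs. The sum over 4 epithelial genes, mostly KRT18, was 11.4 to 14.3 CPM in the empty vector and 51.4 to 52.3 with ARID1A WT. It was 49.2 to 50.6 with ARID1B WT and 83.1 to 86.6 with M2. EPCAM, CDH1 and KRT8 reached at most 0.809, 1.63 and 5.91 CPM in any library. The sum over 4 leukocyte genes, mostly CD68, was 1.63 to 2.88 CPM in the empty vector, 14.9 to 16.7 with ARID1A WT and up to 14.1 with ARID1B WT. Their part in the results was not tested. In bulk RNA fewer cells of a type and less RNA per cell cannot be told apart.

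Insulin and the IGFs act through the tyrosine kinase receptors encoded by INSR and IGF1R, which signal by way of IRS proteins to PI3K, AKT and mTOR. GRB10 is an SH2-domain adaptor that binds the activated receptors and dampens their signal, and it is an imprinted gene. IGF2R takes up and degrades IGF2 and does not signal like the kinase receptors. The IGFBPs are secreted proteins that hold IGFs in the extracellular space and can either restrain or prolong their action. In the endometrium IGFs and their binding proteins are known to vary with the menstrual cycle.

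For orientation, the 250 bases before the annotated start of GRB10, IGFBP3 and IGFBP5 are shown, as RefSeq gives them on GRCh38.p14. Each is written 5′ to 3′ along the gene, in lower case, with capitals marking a match to one of 4 motifs searched on both strands: AP-1 (TGANTCA), TEAD (GGAATG), CRE (TGACGTCA) and the TATA box (TATAAA). None of the 4 overlaps another in the sequences shown. GRB10 has 5 starts in RefSeq, and the one farthest upstream is printed. The counts do not say which start the reads came from.
GRB10, chr7:50793454-50793703, minus strand: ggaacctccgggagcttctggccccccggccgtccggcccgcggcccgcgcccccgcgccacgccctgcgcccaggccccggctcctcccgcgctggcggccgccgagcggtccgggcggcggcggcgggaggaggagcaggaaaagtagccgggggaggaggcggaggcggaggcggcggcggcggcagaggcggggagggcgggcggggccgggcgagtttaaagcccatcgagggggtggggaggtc
IGFBP3, chr7:45921273-45921522, minus strand: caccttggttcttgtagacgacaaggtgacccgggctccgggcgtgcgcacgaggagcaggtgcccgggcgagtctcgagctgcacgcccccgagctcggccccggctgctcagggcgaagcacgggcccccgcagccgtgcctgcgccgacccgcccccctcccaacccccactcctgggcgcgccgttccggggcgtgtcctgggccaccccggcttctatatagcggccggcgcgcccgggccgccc
IGFBP5, chr2:216695550-216695799, minus strand: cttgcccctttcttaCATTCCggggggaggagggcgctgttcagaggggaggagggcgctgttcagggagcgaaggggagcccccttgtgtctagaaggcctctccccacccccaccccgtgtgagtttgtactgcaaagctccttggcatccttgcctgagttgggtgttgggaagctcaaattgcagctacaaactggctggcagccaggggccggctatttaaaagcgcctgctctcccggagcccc
The GRB10 stretch holds 37 CpG dinucleotides and the IGFBP3 stretch 32, whereas that of IGFBP5 holds 8. At the other GRB10 starts, which are not shown, the same length holds 40, 19, 2 and 3. Over 35116 RefSeq promoter windows of the same length the median was 11 and the 90th percentile 31. GRB10, which was lower with every construct, and IGFBP3, which was higher with some, both have a CpG-dense stretch here, and IGFBP5, which was near 0 in the empty vector, has a CpG-poor one. The only motif letters found in these 3 stretches were those of TEAD in IGFBP5, on the other strand at position -235 from the start, and 11.9% of all windows hold them. AP-1 letters occur in 6.57%, CRE letters in 1.65% and TATAAA in 10.7% of the windows. A match of letters is a description of the sequence and no evidence of binding.

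GRB10 was lower with all 12 constructs than in the empty vector, and lowest with the 2 wild-type proteins. In CPM, its level in the empty vector was 12.9 and 12.6 in replicates 1 and 2 and 6.80 and 6.91 in replicates 3 and 4. With ARID1A WT it was 0.937 in each library, and with ARID1B WT 1.32 and 1.27. No library of a construct overlapped the empty vector range. These low levels rest on 16 and 20 reads with ARID1A WT and on 24 and 27 with ARID1B WT, against 104 to 284 in the empty vector.

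Against all 4 empty vector libraries the log2 fold change of GRB10 was -3.39 ± 0.29 (SE) with ARID1A WT, 10.5-fold lower. With ARID1B WT it was -2.93 ± 0.27, 7.61-fold lower. Against the pair of the same set the values were -3.76 ± 0.16 for ARID1A WT and -2.40 ± 0.17 for ARID1B WT. The difference between those 2 responses was -1.36 ± 0.28 on the log2 scale and was called, though it rests on the libraries for which GRB10 was picked. The baselines differ, however: GRB10 was 1.86-fold lower in the empty vector pair of set 2 than in that of set 1, and the levels reached with the 2 wild-type proteins lay close together.

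The other ARID1A constructs of set 1 left GRB10 at intermediate levels. DBDmut gave 2.06 and 1.85 CPM and delIDR1 2.71 and 2.92, and CBR had a mean of 2.08 ± 0.107 CPM (SD, n = 2). All 6 libraries lay above both ARID1A WT libraries and below every empty vector library. Relative to their own empty vector pair the log2 fold changes were -2.61 ± 0.13 for CBR, -2.70 ± 0.13 for DBDmut and -2.18 ± 0.12 for delIDR1. Relative to ARID1A WT, GRB10 was higher by 1.15 ± 0.35 with CBR and by 1.58 ± 0.34 with delIDR1, and both passed the threshold. DBDmut was higher by 1.06 ± 0.36 and did not pass. The CBR call ended when CBR replicate 1 or either ARID1A WT library was left out (1.08 to 1.15). These 3 comparisons share the ARID1A WT libraries for which GRB10 was picked, so no p is given. Among the 3 mutants themselves no difference passed in the fit of all 13 groups: CBR against delIDR1 was -0.43 (95% interval -1.01 to 0.14, adjusted p = 0.465, edgeR's quasi-likelihood test), CBR against DBDmut 0.09 (-0.51 to 0.69, adjusted p = 0.831) and delIDR1 against DBDmut 0.52 (-0.06 to 1.10, adjusted p = 0.166). Fitted with only the groups compared, delIDR1 against DBDmut passed (0.55, adjusted p = 0.0226, edgeR's quasi-likelihood test), as did DBDmut against ARID1A WT (1.05). These intervals do not show that the mutants act alike.

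**Figure D1:**
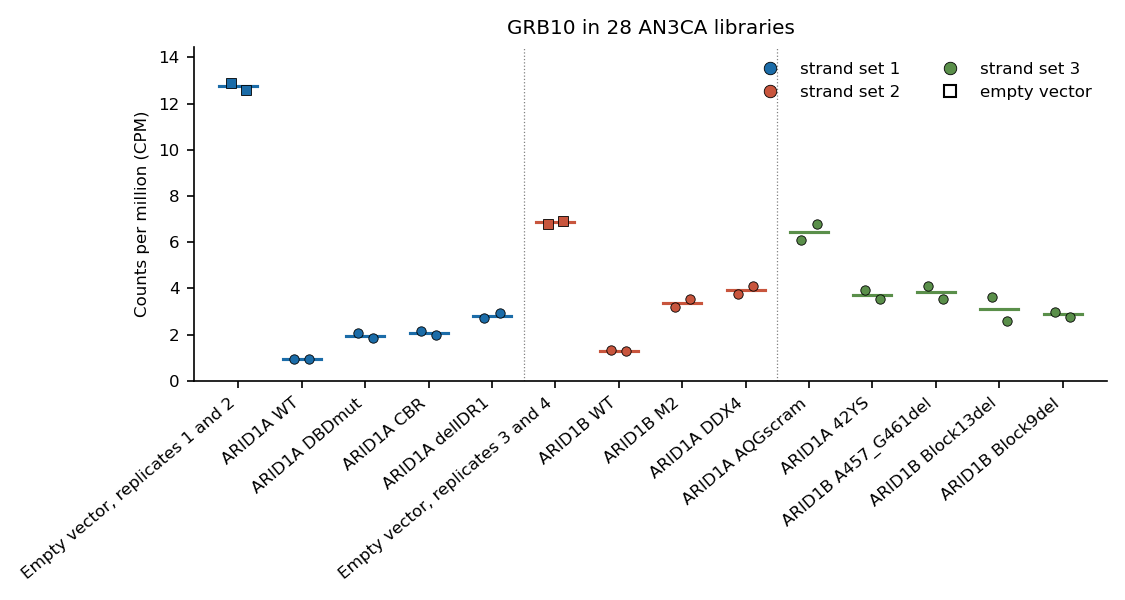
GRB10 in counts per M reads (y axis, from 0) in each of the 28 libraries; circles are construct libraries, squares empty vector libraries, horizontal lines group means, colours the 3 strand sets, and dotted lines separate the sets. The 2 empty vector pairs sit near 12.8 and 6.86 CPM, the wild-type constructs are lowest within their sets (0.937 and 1.30 CPM), and AQGscram (6.45 CPM) is the highest construct.

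In set 2, M2 left GRB10 at 3.21 and 3.52 CPM and the DDX4 hybrid at 3.77 and 4.12 CPM. Both stood between ARID1B WT and the empty vector pair of the set, with no overlap. The log2 fold changes against that pair were -1.03 ± 0.13 for M2 and -0.80 ± 0.13 for the DDX4 hybrid. M2 was higher than ARID1B WT by 1.37 ± 0.31, which passed the threshold but shares the ARID1B WT libraries. Without ARID1B WT replicate 2 the value was 1.35 and its adjusted p 0.058. The response to the DDX4 hybrid was smaller than that to ARID1A WT, each against its own pair: the difference was -2.96 ± 0.22, given as a description because it uses the ARID1A WT libraries. ARID1A reads also differed, at 523 CPM on average with the hybrid and 733 with ARID1A WT, and their part in the result was not tested.

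In set 3, AQGscram had the highest GRB10 of all constructs, 6.11 and 6.79 CPM. It was followed by A457_G461del (4.12 and 3.53), 42YS (3.91 and 3.54), Block13del (3.62 and 2.61) and Block9del (2.98 and 2.78). Against all 4 empty vector libraries AQGscram was lower by 0.62 ± 0.21 on the log2 scale, but against replicates 3 and 4 alone the difference was -0.08, with nearest libraries of 6.79 and 6.80 CPM. The other 4 constructs gave -1.37 to -1.78 against all 4 and -0.85 to -1.25 against replicates 3 and 4. Within the set, GRB10 was lower with 42YS than with AQGscram by 0.79 ± 0.25 (log2 fold change -0.79, adjusted p = 0.0382). That call rests on all 4 libraries, since leaving out any 1 of AQGscram or 42YS raised the adjusted p to between 0.0507 and 0.201. ARID1A reads also differed, at 247 CPM on average with AQGscram and 374 with 42YS, against 288 in the empty vector. Their part in these GRB10 levels was not tested. The 3 ARID1B deletions of the set did not differ among themselves past the threshold. Their log2 differences were 0.30 (-0.22 to 0.83) for A457_G461del against Block13del, 0.40 (-0.12 to 0.93) against Block9del and 0.10 (-0.44 to 0.64) for Block13del against Block9del.

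Ordered by mean, GRB10 ran from the empty vector (9.81 ± 3.41 CPM, SD, n = 4) through AQGscram (6.45 ± 0.479, n = 2) and a middle group of 7 constructs between 2.81 and 3.94 CPM to CBR, DBDmut, ARID1B WT and ARID1A WT. Within the middle group the libraries of neighbours in the order overlapped in 5 of 6 steps, the exception being 42YS and M2, whose nearest libraries were 3.54 and 3.52 CPM. CBR and DBDmut overlapped as well. The steps from the empty vector to AQGscram, from AQGscram to the DDX4 hybrid, from delIDR1 to CBR, from DBDmut to ARID1B WT and from there to ARID1A WT showed no overlap. This order pools the strand sets, and the empty vector pairs of sets 1 and 2 stood at 12.8 and 6.86 CPM. For steps between groups of different sets, set and construct cannot be told apart. Against their own pairs, DBDmut and CBR had larger falls than ARID1B WT.

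Of the receptors, IGF2R was the most abundant and changed direction with the control. It had 658, 642, 325 and 332 CPM in empty vector replicates 1 to 4. ARID1A WT gave 448 and 446, CBR 538 and 547, delIDR1 501 and 491, and DBDmut 368 and 376. ARID1B WT gave 433 ± 33.7 (SD, n = 2), M2 423 and 408, and the DDX4 hybrid 368 and 370. Every library of these 7 constructs lay between the 2 empty vector pairs.

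Pooled over the 4 empty vector libraries, IGF2R differed little in sets 1 and 2, by -0.41 to 0.15 on the log2 scale. Against the own pair it was lower with all 4 constructs of set 1, by -0.26 ± 0.09 (CBR) to -0.80 ± 0.09 (DBDmut). In set 2 it was higher with ARID1B WT (0.40 ± 0.09) and M2 (0.34 ± 0.09), and the DDX4 hybrid gave 0.17 ± 0.09, which was not called. The difference between the ARID1A WT and ARID1B WT responses was -0.94 ± 0.13, while the levels with these proteins overlapped. The empty vector pairs themselves differed by -0.98 ± 0.09. In set 3, IGF2R was at 183 to 285 CPM, below all 4 empty vector libraries. Within sets no difference between constructs passed the threshold in the fit of all 13 groups, where its SE was 0.25 in each. When only the groups compared were fitted, 7 of the 11 differences passed, among them those of CBR (0.56) and delIDR1 (0.44) over DBDmut, whose libraries do not overlap (adjusted p = 4.04e-12 and 2.42e-07, edgeR's quasi-likelihood test).

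INSR, the insulin receptor, was at 29.9, 28.6, 22.6 and 21.2 CPM in the empty vector. It was 22.2 and 20.6 with ARID1A WT and 17.4 and 16.8 with ARID1B WT. Against the own pair its log2 fold change was -0.46 ± 0.08 with ARID1A WT and -0.36 ± 0.09 with ARID1B WT, and it was called lower with 6 of 7 constructs of sets 1 and 2. The DDX4 hybrid (21.2 and 21.1 CPM) gave -0.05 ± 0.09. In none of the 11 comparisons within a set did INSR differ past the threshold in the fit of all 13 groups. Fitted with only the groups compared, CBR was above ARID1A WT by 0.17, which passed. With the replicate number as a block, 42YS was above AQGscram by 0.19, which also passed.

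IGF1R, the IGF1 receptor, was barely detected, at 0.116 to 1.09 CPM over the 28 libraries, or 3 to 24 reads. In the empty vector it had 1.09, 0.764, 0.654 and 0.502 CPM. It was lowest with Block9del, 0.116 and 0.217 CPM, from 3 and 5 reads. Per kilobase of exon (union of GENCODE release 29 exons), IGF1R stood at 0.0664 CPM in empty vector replicates 1 and 2, where INSR stood at 2.80, IGF2R at 36.4 and GRB10 at 1.30. Of the 2 kinase receptors INSR was thus the one with reads in depth, and with ARID1A WT GRB10 had gone from 1.30 to 0.0957 CPM per kilobase while INSR went from 2.80 to 2.05.

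Among the binding proteins IGFBP5 was the one that appeared from near 0. It had 1, 1, 0 and 0 reads in the 4 empty vector libraries. With ARID1A WT it had 126 and 150 reads (7.38 and 7.03 CPM), with M2 179 and 117 (6.84 and 5.21 CPM) and with ARID1B WT 65 and 85 (3.57 and 4.01 CPM). Every one of the 24 construct libraries except 1 of Block9del had more IGFBP5 reads than any empty vector library.

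Against the 2 reads of the empty vector the ratio of normalised IGFBP5 counts was 278 with ARID1A WT (exact 95% interval of the counts 76.4 to 2311). It was 236 with M2 (64.8 to 1958) and 148 with ARID1B WT (40.2 to 1230). For the remaining constructs it ranged from 57.5 with DBDmut (15.3 to 485) to 6.35 with Block9del (1.27 to 61.4). Both empty vector reads lay in the pair of set 1. Against that pair the ratio was 159 with ARID1A WT (43.6 to 1320) and 32.8 with DBDmut (8.72 to 277). It was 25 with delIDR1 (6.58 to 212) and 16.5 with CBR (4.23 to 142). These intervals cover counting error only. Against their own pair, which held 0 reads, ARID1B WT was at least 42.2-fold higher, M2 at least 67.4-fold and the DDX4 hybrid at least 10.1-fold, taking 3 reads over the pair as the floor.

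The mutants of ARID1A had less IGFBP5 than ARID1A WT. DBDmut had 1.58 and 1.38 CPM, delIDR1 1.13 ± 0.00833 (SD, n = 2), and CBR 0.792 and 0.699, none overlapping ARID1A WT. The log2 differences from ARID1A WT were -2.27 ± 0.33, -2.67 ± 0.34 and -3.26 ± 0.37 in that order. M2 was above ARID1B WT by 0.67 ± 0.30. IGFBP5 passed the filter through the groups in which it was high, so these differences are descriptions. So M2 kept IGFBP5 at or above the wild-type level, whereas its GRB10 lay between wild type and empty vector. In set 3, A457_G461del (1.14 and 0.627 CPM) exceeded Block9del (0.271 and 0.0435 CPM) by 2.39 ± 0.56. Without A457_G461del replicate 1 this was 1.90, and without Block9del replicate 2 it was 1.68. ARID1B reads also differed, at 2236 CPM on average with A457_G461del and 344 with Block9del, and their part in the result was not tested.

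IGFBP3, a carrier of IGFs in the circulation that is also made by many tissues, separated the constructs in another way. The empty vector libraries had 0.680, 0.854, 0.131 and 0.111 CPM. DBDmut gave 3.46 and 3.32 CPM, ARID1A WT 2.99 and 2.76, ARID1B WT 1.59 and 1.84, and the DDX4 hybrid 1.29 and 1.48. All 8 of these libraries were above the 4 empty vector libraries. CBR gave 0.0880 and 0.186 CPM and delIDR1 0.306 and 0.180, below their own pair. No library of set 3 exceeded 0.367 CPM. With 42YS there was 1 read in all, against 38 in the 4 empty vector libraries, a ratio of 23.4 (exact 95% counting interval 3.96 to 950). Of those 38 reads 34 lay in replicates 1 and 2 and 4 in replicates 3 and 4. Against replicates 3 and 4 alone the log2 fold change with 42YS was -2.25 and was not called.

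Against the own pair the log2 fold change of IGFBP3 was 1.89 ± 0.24 with ARID1A WT, 2.13 ± 0.23 with DBDmut, -2.45 ± 0.47 with CBR and -1.63 ± 0.41 with delIDR1. In set 2 it was 3.78 ± 0.45 with ARID1B WT, 3.47 ± 0.45 with the DDX4 hybrid and 1.86 ± 0.59 with M2, over a baseline of 2 reads in each empty vector library. The 2 truncations thus lay on the other side of their own empty vector pair from DBDmut. Against replicates 3 and 4 alone they were at 0.17 (CBR) and 0.98 (delIDR1), neither of them called. Compared directly, CBR was lower than DBDmut by 4.58 ± 0.58 (log2 fold change -4.58) and delIDR1 by 3.77 ± 0.52 (log2 fold change -3.77). These values rest on 6 reads in all with CBR and 11 with delIDR1, against 144 with DBDmut. IGFBP3 passed the filter through the groups in which it was high, so its differences between constructs are descriptions. DBDmut and ARID1A WT differed by 0.24 (95% interval -0.50 to 0.98). M2 was below ARID1B WT by -1.91 ± 0.49, which passed, but not when either M2 library or ARID1B WT replicate 2 was left out (-1.68, -2.15 and -1.80).

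**Figure D2:**
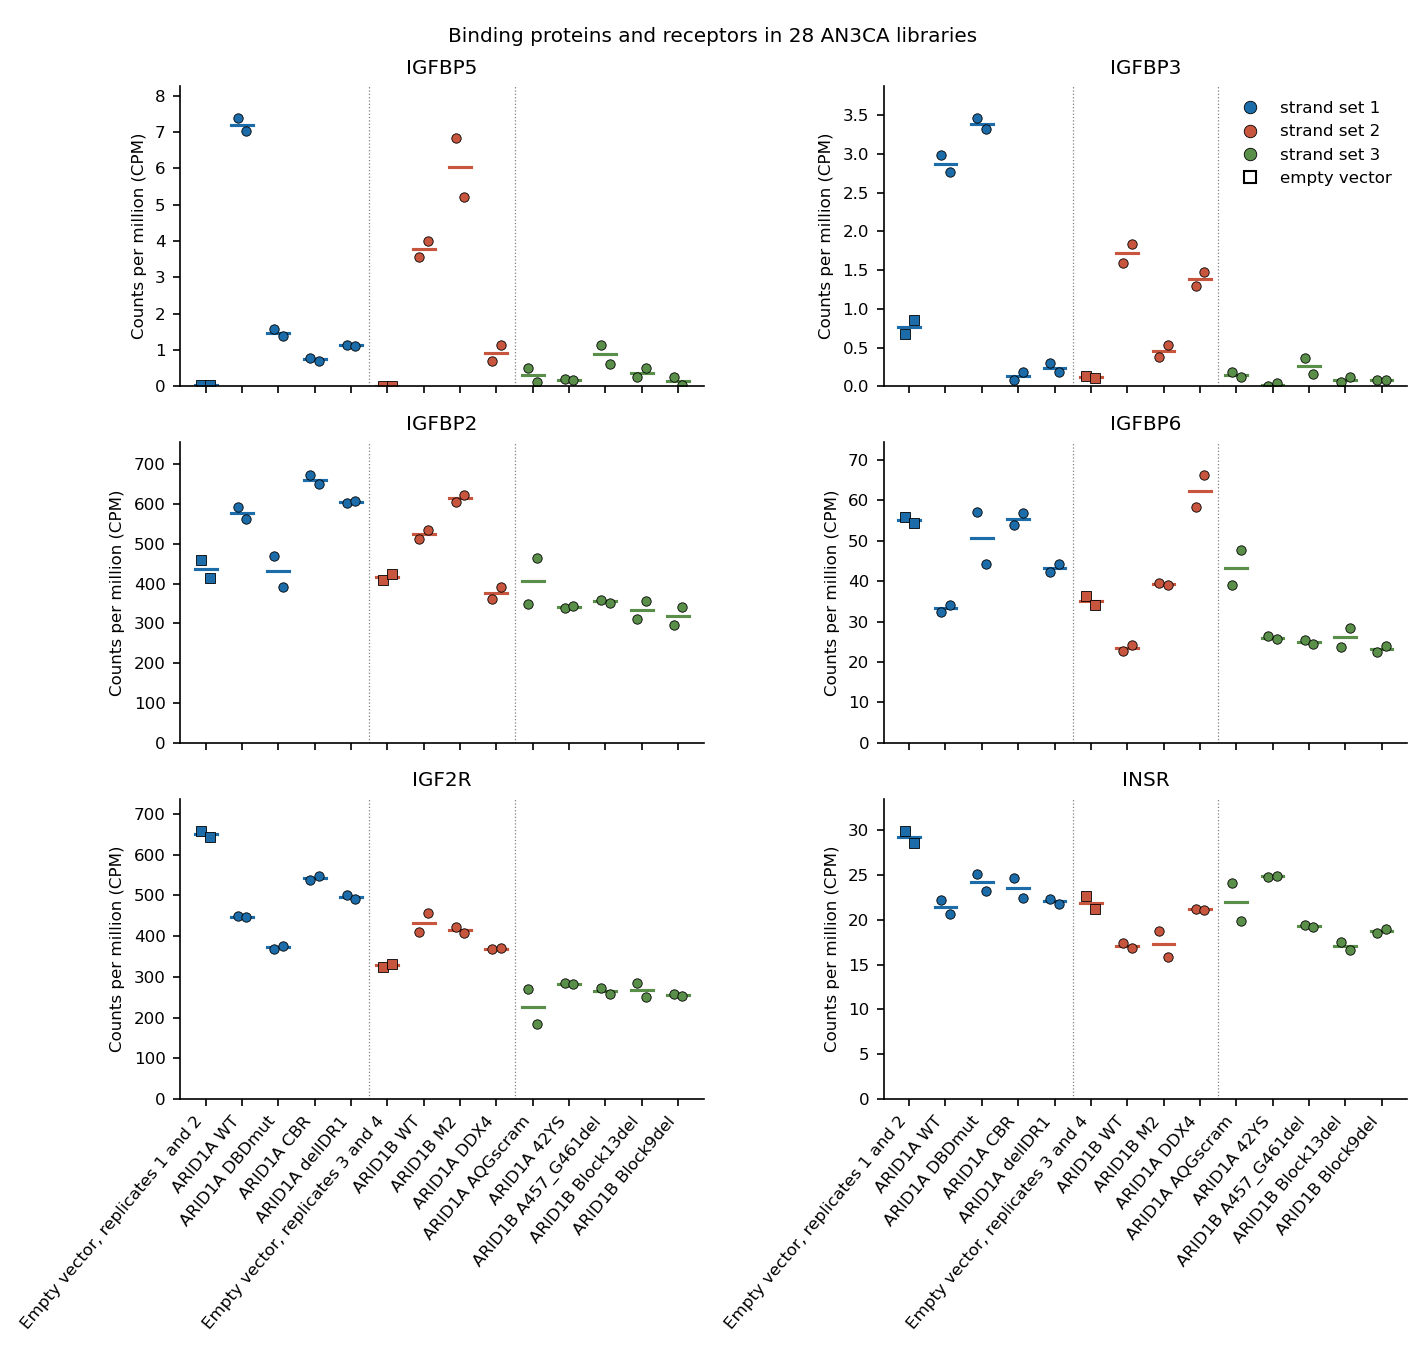
Levels in counts per M reads (y axes, from 0) of IGFBP5, IGFBP3, IGFBP2, IGFBP6, IGF2R and INSR in each library; circles are constructs, squares empty vector libraries, lines group means, colours the strand sets. IGFBP5 is near 0 in the empty vector and highest with ARID1A WT (7.20 CPM) and M2 (6.03 CPM), IGFBP3 is highest with DBDmut (3.39 CPM), and the 2 empty vector pairs stand apart for IGF2R (642 to 658 and 325 to 332 CPM).

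IGFBP2 was the most abundant binding protein, and its empty vector libraries overlapped between sets. They had 459, 414, 410 and 424 CPM. CBR gave 674 and 649, M2 606 and 623, delIDR1 603 and 608, ARID1A WT 593 and 563, and ARID1B WT 513 and 534. All 10 of these libraries were above the 4 empty vector libraries, and the log2 fold changes against them were 0.63 ± 0.09, 0.53 ± 0.09, 0.50 ± 0.09, 0.44 ± 0.09 and 0.29 ± 0.09 in that order. DBDmut (470 and 391 CPM) and the DDX4 hybrid (361 and 392 CPM) gave 0.01 ± 0.09 and -0.18 ± 0.10, neither of them called. Of set 3, all but AQGscram (349 and 463 CPM) were below the empty vector range, by -0.27 to -0.42. The mutated ARID domain and the truncations again parted: IGFBP2 was higher than with DBDmut by 0.62 ± 0.11 with CBR (adjusted p = 0.000138, edgeR's quasi-likelihood test) and by 0.49 ± 0.11 with delIDR1 (adjusted p = 0.00149). The response to ARID1A WT exceeded that to the DDX4 hybrid by 0.55 ± 0.13.

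IGFBP6, which binds IGF2 in preference to IGF1, was at 55.9, 54.5, 36.3 and 34.1 CPM in the empty vector. It was lower with the wild-type proteins, at 32.4 and 34.1 CPM with ARID1A WT and 22.8 and 24.1 with ARID1B WT, or -0.73 ± 0.10 and -0.58 ± 0.11 on the log2 scale against the own pair. CBR (53.9 and 56.9 CPM) stayed at the level of its pair, with 0.00 ± 0.09. The DDX4 hybrid went the other way, with 58.3 and 66.4 CPM and a log2 fold change of 0.83 ± 0.10 against its pair. Its response differed from that of ARID1A WT by -1.56 ± 0.14 (ARID1A WT minus hybrid). M2 was above ARID1B WT by 0.75 ± 0.19 and CBR above ARID1A WT by 0.74 ± 0.18, both past the threshold. The M2 call ended when any 1 of the 4 M2 and ARID1B WT libraries was left out (0.71 to 0.79). In set 3, 42YS (26.4 and 25.7 CPM) was lower than AQGscram (39.0 and 47.6 CPM) by 0.73 ± 0.19 (log2 fold change -0.73, adjusted p = 0.0105). That call ended when AQGscram replicate 2 or either 42YS library was left out (-0.58 to -0.75). ARID1A reads also differed between these groups, as given above, and their part in the result was not tested.

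IGFBP4 gave at most 12 reads in any library (0.524 CPM, with delIDR1). It had 7, 9, 1 and 0 reads in the empty vector and 0 in both DBDmut libraries. With delIDR1 it had 12 and 10 reads and was at least 6.90-fold higher than with DBDmut, and with CBR, from 8 and 3 reads, at least 3.53-fold higher. IGFBP7 had 1 read in each of 3 libraries and 0 in the others, and 3 reads would amount to 0.106 to 0.196 CPM in a library.

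Counted together, 5 of the 9 tested members were called with ARID1A WT against all 4 empty vector libraries (3 higher, 2 lower), where 44.5% of all genes tested were called. With ARID1B WT 7 were called (3 higher, 4 lower) against 43.1% of all genes. The counts for the other ARID1A constructs were 4 with CBR (53.1% of all genes), 3 with delIDR1 (50.1%), 4 with DBDmut (35.1%), 4 with the DDX4 hybrid (39.5%), 5 with AQGscram (24.7%) and 6 with 42YS (33.8%). For ARID1B they were 4 with M2 (47.3%), 8 with A457_G461del (39% of all genes), 8 with Block13del (39.3%) and 8 with Block9del (39%). With the 3 deletions of ARID1B in set 3, 7 or 8 members were lower and at most 1 higher, but these groups have no empty vector of their own set. Fitted with only the groups compared, 1, 0 and 1 members passed for A457_G461del, Block13del and Block9del, where 12%, 6.02% and 6.4% of all genes tested did. Since the members were picked on such contrasts, nothing is read from these counts. The median log2 fold change of the 9 members was -0.25 with ARID1A WT and -0.59 with ARID1B WT, against -0.06 and -0.07 over all genes tested.

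Against the pair of the same set, 8 members were called with ARID1A WT (60.7% of all genes), 6 with CBR (59.6%), 7 with delIDR1 (56.3%) and 7 with DBDmut (59%). In set 2 the counts were 7 with ARID1B WT (52%), 6 with M2 (53.1%) and 4 with the DDX4 hybrid (50.5%). GRB10 was lower in all 7 of these comparisons and IGFBP5 higher in all 7, while IGF2R, IGFBP3 and IGFBP6 were higher in some and lower in others. The responses to ARID1A WT and ARID1B WT, each against its own pair, differed for 3 members (41.6% of all genes) and those to ARID1A WT and the DDX4 hybrid for 6 (50.5%).

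**Figure D3:**
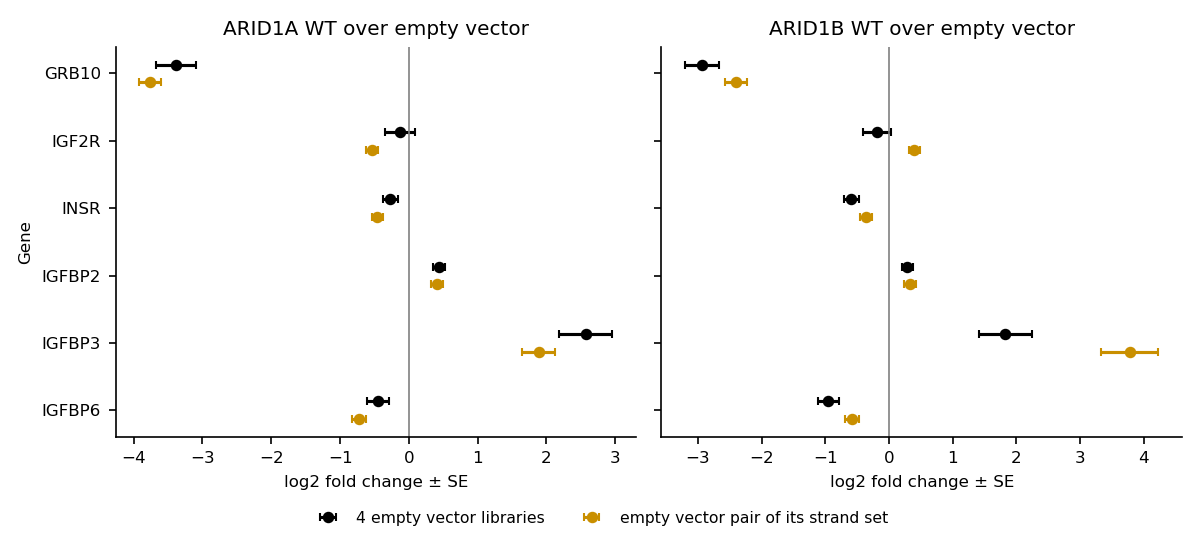
Log2 fold change ± SE (x axis) of 6 members (y axis) for ARID1A WT (left) and ARID1B WT (right), against all 4 empty vector libraries (black) and against the empty vector pair of the same strand set (amber). GRB10 is lower and IGFBP2 and IGFBP3 are higher against either control, whereas IGF2R with ARID1B WT is at -0.18 against 4 libraries and 0.40 against its own pair.

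Comparing constructs within a set takes the empty vector out of the contrast but not out of the fit. In the fit of all 13 groups its 4 libraries form 1 group, and the difference between its pairs enters the spread. Against ARID1A WT, 4 members were called by edgeR's quasi-likelihood test with CBR (47.5% of all genes tested), 3 with delIDR1 (40.2%) and 2 with DBDmut (5.62%), the last being IGFBP2 (-0.43 ± 0.11) and IGFBP5. The IGFBP2 call ended without DBDmut replicate 2 or without either ARID1A WT library. Between mutants, 0 were called for CBR against delIDR1 (6.45% of all genes), and 3 each for CBR (46.9%) and delIDR1 (41.1%) against DBDmut. M2 differed from ARID1B WT in 3 (14.3%) and 42YS from AQGscram in 2 (15.8%). Among the ARID1B deletions the counts were 0 for A457_G461del against Block13del (5.48%), 1 against Block9del (12.6%) and 0 for Block13del against Block9del (0.471%). For the 3 comparisons in which edgeR called 0 (CBR against delIDR1, A457_G461del against Block13del, Block13del against Block9del), DESeq2 also called 0, and the counts at an unadjusted p under 0.05 were 0, 1 and 0. Fitted with only the groups compared, CBR and delIDR1 differed in 3 members, where 39.4% of all genes were called. IGFBP3, IGFBP4 and IGFBP5 are included in these counts, and their calls are descriptions. So are the calls of GRB10 against ARID1A WT and ARID1B WT, the libraries on which it was picked.

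**Figure D4:**
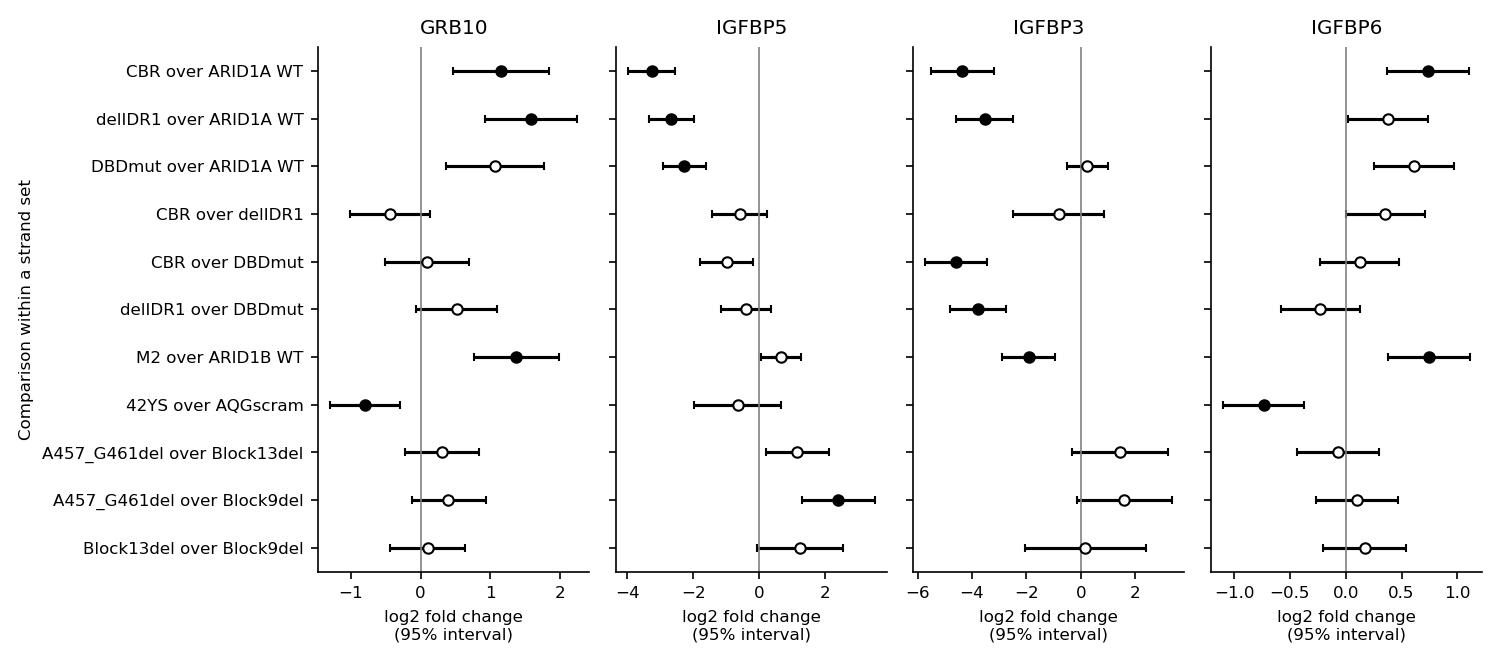
Log2 fold change with its 95% interval (x axes) of GRB10, IGFBP5, IGFBP3 and IGFBP6 in the 11 comparisons of constructs within a strand set (y axis); filled circles passed an adjusted p of 0.05, and IGFBP3 in 42YS over AQGscram is not drawn because 42YS had 1 read. GRB10 is higher with CBR (1.15), delIDR1 (1.58) and M2 (1.37) than with the wild type, and IGFBP3 is lower with both truncations than with DBDmut (-4.58 and -3.77).

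Around the members, 85 other genes of insulin and IGF signalling were listed by role, of which 71 passed the filter. With ARID1A WT 34 of the 71 rose, 7 fell and 30 did not pass, and with ARID1B WT 29 rose, 7 fell and 35 did not pass. Their median log2 fold change was 0.25 and 0.16, against -0.06 and -0.07 over all genes tested, of which 21.1% and 19.2% rose and 23.5% and 23.9% fell. Against the own pairs 35 rose and 13 fell with ARID1A WT, where 29.9% of all genes rose and 30.8% fell, and 35 rose and 7 fell with ARID1B WT, where 23.6% rose and 28.5% fell. With AQGscram 9 rose and 17 fell (10.9% and 13.7% of all genes), and with Block9del 8 rose and 24 fell (17.8% and 21.2%), with medians of -0.06 and -0.13. The list was drawn up with earlier results of these data known, and the genes named from it were taken by the size of these same changes, so their values are given as descriptions. Counts by role are against all 4 empty vector libraries unless the own pair is named, and they stand beside the shares of all genes given here.

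The ligands themselves were hardly transcribed. INS and IGFBP1 had 0 reads in every library. IGF1 had 0 reads in the empty vector, 6 over the 2 ARID1A WT libraries and 10 over those of ARID1B WT, at least 4.04-fold and 6.56-fold higher, against a floor of 3 reads over the 4 empty vector libraries. IGF2 had 2 reads over the empty vector libraries and 15 with the DDX4 hybrid, its highest group.

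All 4 tested genes among the binding protein proteases and stanniocalcins moved with both wild-type proteins, 3 up and 1 down. HTRA1, a serine protease that cleaves IGFBPs, rose from 1.02 ± 0.341 CPM in the empty vector (SD, n = 4) to 14.8 ± 0.0364 with ARID1A WT (n = 2, log2 fold change 3.81 ± 0.18) and to 5.29 ± 0.258 with ARID1B WT (2.33 ± 0.20). PAPPA, a metalloproteinase that cleaves IGFBP4 and IGFBP5, went from 2 reads over 4 empty vector libraries to 35 over 2 with ARID1A WT, a ratio of 35.3 (9.07 to 303). STC1, an inhibitor of PAPPA, had 0 reads in the empty vector and 27 with ARID1B WT, at least 17.7-fold more. STC2, another inhibitor of PAPPA, fell from 142 ± 47.4 CPM to 48.4 ± 0.538 and 50.2 ± 0.144 (-1.56 ± 0.19 and -1.51 ± 0.19). Against the own pairs STC2 fell by 1.92 and 1.01.

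Of the adaptors and substrates, 7 of 15 rose with ARID1A WT and 1 fell, and 1 rose and 2 fell with ARID1B WT. Over the own pairs, 5 rose and 4 fell with ARID1A WT, and 5 rose and 1 fell with ARID1B WT. GAB1, a docking protein, rose with both (0.76 ± 0.12 and 0.74 ± 0.12). IRS1, a main substrate of both kinase receptors, rose with ARID1A WT (1.23 ± 0.23), while ARID1B WT gave 0.52 ± 0.24, which did not pass. NEDD4, the ubiquitin ligase that GRB10 recruits to IGF1R, fell with both (-0.72 ± 0.19 and -0.68 ± 0.19). Against the own pairs NEDD4 was at -1.07 ± 0.08 and -0.20 ± 0.09, and the second of these did not pass. GIGYF1, named for its interaction with GRB10, fell with ARID1B WT (-0.56 ± 0.13) and was at -0.21 ± 0.13 with ARID1A WT.

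In the PI3K and AKT group 6 of 13 rose and 1 fell with ARID1A WT, and 5 rose and 1 fell with ARID1B WT. PIK3R3, a regulatory subunit of PI3K, rose from 55.7 ± 11.6 to 144 ± 0.488 CPM with ARID1A WT and to 130 ± 2.78 with ARID1B WT (1.37 ± 0.11 and 1.22 ± 0.11). PIK3CD, a catalytic subunit, rose by 0.80 ± 0.08 and 0.64 ± 0.08. PHLPP1, a phosphatase acting on AKT, rose by 0.79 ± 0.13 and 0.51 ± 0.14 (1.10 and 0.23 against the own pairs), and PIK3R2, another regulatory subunit, by 0.31 ± 0.05 and 0.49 ± 0.05.

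In the mTOR group 2 of 13 rose and 2 fell with ARID1A WT, and 3 rose and 2 fell with ARID1B WT. DEPTOR, an inhibitor of mTOR, rose from 3.38 ± 0.595 CPM to 16.5 ± 1.38 and 6.91 ± 0.444 (2.30 ± 0.11 and 1.04 ± 0.12). EIF4EBP1, the translation repressor that mTOR phosphorylates, fell from 210 ± 12.2 to 80.1 ± 5.29 and 117 ± 4.83 CPM (-1.39 ± 0.09 and -0.84 ± 0.09). MLST8, a subunit of both mTOR complexes, fell by 0.86 and 0.58, and MTOR itself rose by 0.47 ± 0.10 and 0.36 ± 0.11. Against the own pair MTOR was at 0.17 ± 0.07 with ARID1B WT and did not pass.

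Of the 6 FOXO and GSK3 genes, 4 rose and 1 fell with ARID1A WT, and 3 rose with ARID1B WT, or 5 against its own pair. FOXO6 rose from 1.14 ± 0.143 CPM to 7.24 ± 0.632 and 11.5 ± 0.923 (2.66 ± 0.19 and 3.32 ± 0.18), and FOXO1, a transcription factor that AKT keeps out of the nucleus, by 0.75 ± 0.18 and 0.52 ± 0.18. FOXO3 rose with ARID1A WT (0.41 ± 0.16, and 0.10 ± 0.08 against the own pair, which did not pass) and was at 0.01 ± 0.16 with ARID1B WT. GSK3B, the kinase that AKT inhibits, rose with ARID1A WT (0.39 ± 0.10) and was at 0.12 ± 0.10 with ARID1B WT.

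All 8 tested genes of the group of receptor inhibitors moved with both proteins against the 4 empty vector libraries, 7 up and 1 down. Against the own pairs 7 rose and 1 fell with ARID1A WT, and 6 rose and 1 fell with ARID1B WT. SOCS1, a feedback inhibitor of cytokine and insulin receptor signalling, rose from 0.438 ± 0.190 CPM to 5.59 ± 0.545 with ARID1A WT and 2.93 ± 0.134 with ARID1B WT (3.62 ± 0.27 and 2.69 ± 0.29). SOCS2 rose by 1.64 ± 0.22 and 0.98 ± 0.23, and SOCS6 by 1.24 ± 0.11 and 0.55 ± 0.11. TRIB3, a pseudokinase that binds AKT, was the one that fell, by 1.65 and 1.94. Its empty vector level was uneven, from 85.8 to 397 CPM, and against the own pairs it fell by 2.35 with ARID1A WT and by 0.53 with ARID1B WT.

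Of the RNA-binding proteins that act on IGF2 mRNA, IGF2BP3 rose by 0.55 ± 0.11 with ARID1A WT and 0.36 ± 0.11 with ARID1B WT, but by 0.12 ± 0.06 against the own pair of the latter, which did not pass. Of 8 tested imprinted genes other than the members, 3 rose with ARID1A WT and 5 with ARID1B WT, and the others did not pass. Over the own pairs, 6 rose and 1 fell with ARID1A WT, and 5 rose with ARID1B WT. H19, the imprinted RNA beside IGF2, rose from 2.90 ± 0.794 CPM to 10.4 ± 0.989 and 11.9 ± 0.591 (1.87 ± 0.19 and 2.06 ± 0.19). CDKN1C, a cell cycle inhibitor, rose with ARID1A WT (0.58 ± 0.16) and was at 0.27 ± 0.17 with ARID1B WT. SGCE, which encodes a sarcoglycan, and MEST rose with ARID1B WT by 0.48 ± 0.17 and 0.35 ± 0.13, and were at 0.28 ± 0.17 and 0.30 ± 0.13 with ARID1A WT. Against the own pairs SGCE was at 0.77 ± 0.04 with ARID1A WT and 0.11 ± 0.04 with ARID1B WT, both called.

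**Figure D5:**
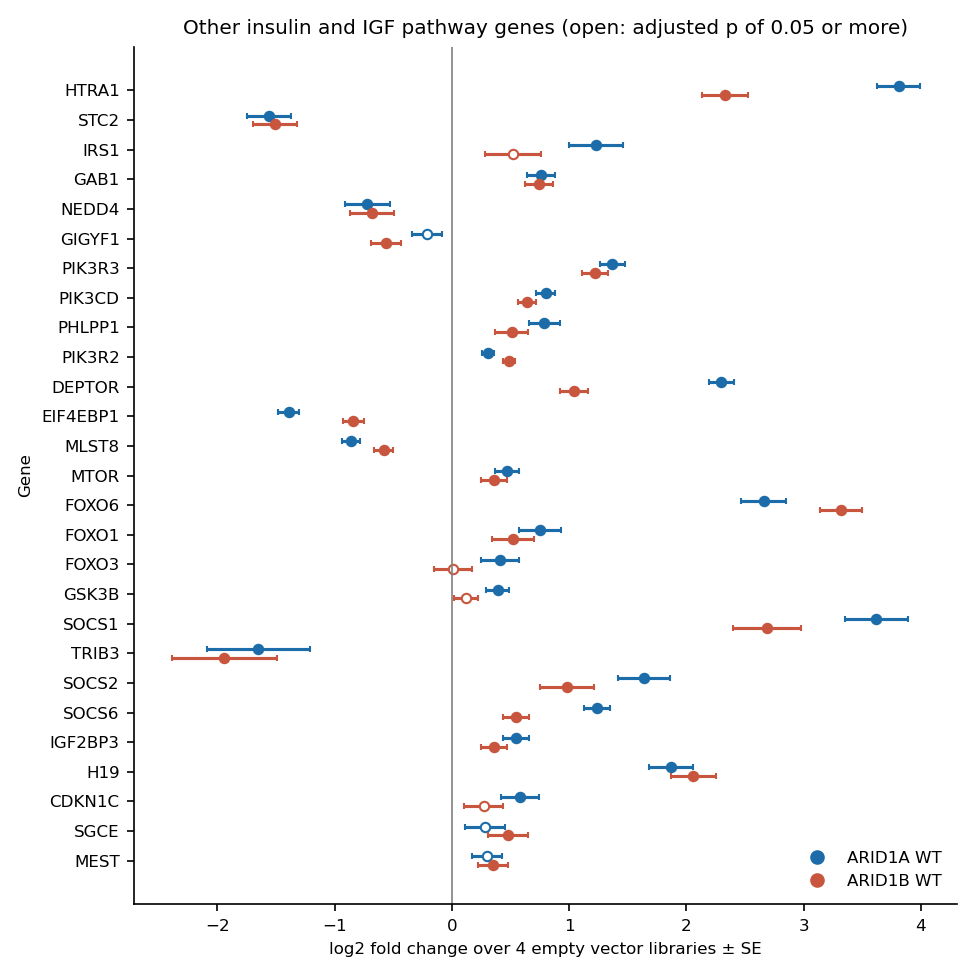
Log2 fold change over the 4 empty vector libraries ± SE (x axis) of the named insulin and IGF pathway genes (y axis, ordered by role) for ARID1A WT (blue) and ARID1B WT (red); open circles did not pass an adjusted p of 0.05. HTRA1 (3.81 and 2.33), SOCS1 (3.62 and 2.69) and FOXO6 (2.66 and 3.32) are far to the right with both proteins, and STC2 and TRIB3 are to the left.

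Genes whose profile across the 13 group means was most like that of GRB10 were taken from 598 genes whose mean log2 CPM reached 1 and whose group means spanned 2 log2 units or more. The highest Pearson correlations were those of ERICH2 (0.914), the prolactin receptor gene PRLR (0.798), the cancer-testis genes MAGEC2 (0.792) and MAGEC1 (0.769), the matrix gene FN1 (0.757) and CELF5 (0.736). The most opposite were SERINC5 (-0.868), the collagen gene COL16A1 (-0.866), the WNT receptor gene FZD4 (-0.854) and NCALD (-0.850). ERICH2 went from 8.33 and 4.68 CPM in the 2 empty vector pairs to 1.39 with ARID1A WT and 1.40 with ARID1B WT. By rank (Spearman correlation over the 13 groups), PRLR (0.830), FN1 (0.775) and MAGEC2 (0.769) stood above ERICH2 (0.747). Over 14 points, with the empty vector pairs apart, CELF5 came to 0.472. These points share the strand sets and the empty vector, and the correlations describe these libraries. Among the members, IGFBP5 was the most opposite to GRB10 (-0.74 over 13 groups) and IGFBP4 (-0.07) and IGF1R (0.08) were nearest to 0.

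The neighbours of GRB10 on the chromosome did not share its pattern. In the RefSeq gene order FIGNL1 lies on one side beyond DDC and COBL on the other. FIGNL1 was at 35.0 and 44.9 CPM in the 2 empty vector pairs, 42.5 with ARID1A WT and 34.1 with ARID1B WT. COBL was at 2.96 and 3.73 CPM, and at 3.89 and 2.36. DDC had at most 7 reads in a library. Beside IGFBP5 lie IGFBP2 and, beyond TNP1, which had 0 reads, TNS1. TNS1, an adhesion protein gene, was at 0.0680 and 0 CPM in the empty vector pairs, 5.60 with ARID1A WT and 4.68 with ARID1B WT. IGFBP5 and TNS1 were thus both near 0 in the empty vector and present with the wild-type proteins. The distance between them was not measured. IGFBP2, directly beside IGFBP5, was at 436 and 417 CPM in the pairs, 578 with ARID1A WT and 523 with ARID1B WT. Beside IGFBP3, TNS3 stayed between 103 and 117 CPM in these 4 groups and ADCY1 went from 11.4 and 13.3 to 5.11 and 5.12.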

How the data were processed

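RNA sequencing of 28 AN3CA libraries was analysed from the deposited count tables. The submitters' processing notes name bcl2fastq, STAR 2.5.2b, Bowtie2 2.29 and hg19 without roles; the annotation is not given in the sources used here. Each deposited table holds whole-number read counts per gene, in the layout STAR writes, without normalization. The column that counts reads opposite to the gene (column 4) was used, and that without strand (column 2) as an alternative. The 4 lines that name no gene, 21.6 to 36.3% of reads, were left out.

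Groups came from the labels. Counts were fitted with edgeR 4.0.16 (R 4.3.3), 1 mean per group over 13 groups, TMM scaling and filterByExpr, which kept 14220 genes. The quasi-likelihood test with Benjamini-Hochberg adjustment over these genes called differences at an adjusted p under 0.05. Comparisons with the pair of the same strand set came from the same kind of model in which each empty vector pair was its own group. A standard error is the absolute log2 fold change divided by the root of its F statistic, and 95% intervals span 1.96 standard errors. CPM uses TMM library sizes. Ratios with 3 or fewer reads on one side were computed from summed reads with exact 95% intervals, and a count of 0 was replaced by a floor of 3 reads; both cover counting error only.

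Alternatives were column 2, other scaling and filters, DESeq2 1.42.0, 1 empty vector pair alone, only the groups compared, a replicate block and leaving out each library. The scripts were tested on simulated data.

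The members and lists were chosen with earlier results of these data known. Named pathway genes were the 3 ligands and, in each role, up to 4 genes with the largest log2 fold change among those called with ARID1A WT or ARID1B WT and whose mean log2 CPM was 0 or more; PAPPA and STC1, below that level, were named after their values were seen. RefSeq promoters (GRCh38.p14) matched 9 of the 10 members by symbol.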

Additional observations from a re-analysis of the deposited data

Results flagged for a closer look

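Responses to 2 constructs, each taken over the empty vector libraries of its own strand set, are given here for the members whose difference of responses was called, 6 in all. They use libraries on which GRB10 was picked, so they are descriptions: 41.6% of all genes were called between the responses to ARID1A WT and ARID1B WT, and 50.5% between those to ARID1A WT and the DDX4 hybrid. For ARID1A WT minus ARID1B WT the log2 difference of responses was -1.36 for GRB10, -0.94 for IGF2R and -1.89 for IGFBP3. For ARID1A WT minus the DDX4 hybrid it was -2.96 for GRB10, -0.71 for IGF2R, -0.41 for INSR, 0.55 for IGFBP2, -1.58 for IGFBP3 and -1.56 for IGFBP6. For GRB10, IGF2R and IGFBP3 the empty vector pairs themselves differed by -0.89, -0.98 and -2.62 (replicates 3 and 4 over 1 and 2), and the part of that difference in the result was not tested.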

How the results depend on the processing

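GRB10 had a negative log2 fold change with all 12 constructs under every alternative run on that comparison, whereas the counts of members called moved with the choice of control. For AQGscram against replicates 3 and 4 alone it was -0.08 and was not called. Fitted with only the groups compared, GRB10 was not called with AQGscram, 42YS or Block13del. With empty vector replicates 1 and 2 alone, 8 members were called with ARID1A WT, the DDX4 hybrid, AQGscram and M2, and 7 with delIDR1 and DBDmut, but over the 12 constructs 56.3 to 68% of all genes were called in these fits, against 24.7 to 53.1% with all 4 libraries. With replicates 3 and 4 alone the count was 6 for delIDR1, 3 for AQGscram and 5 for A457_G461del (34 to 69.3% of all genes). Under the replicate block, which in effect compares constructs with empty vector replicates 1 and 2, it was 8 for ARID1A WT, AQGscram and M2, 7 for delIDR1, DBDmut and the DDX4 hybrid, 5 for delIDR1 against ARID1A WT, 4 for DBDmut against ARID1A WT, 1 for CBR against delIDR1, 5 and 6 for CBR and delIDR1 against DBDmut, 5 for 42YS against AQGscram and 2 for A457_G461del against Block9del. It called 56 to 67.7% of all genes against the empty vector. For GRB10 the block gave 0.52 for delIDR1 against DBDmut (adjusted p = 0.018, edgeR's quasi-likelihood test), 1.05 for DBDmut against ARID1A WT and 0.40 for A457_G461del against Block9del (adjusted p = 0.0468), all past the threshold. The numbers did not pair the libraries: over 78 pairs of groups the correlation of deviations ran from -0.13 to 0.12.

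With genes of an average log2 CPM of at least 1, which leaves fewer members, the counts were 3 for ARID1A WT, 2 for CBR, the DDX4 hybrid and AQGscram, 1 for DBDmut, 4 for ARID1B WT and 5 for A457_G461del, Block13del and Block9del, and within sets 2 for CBR against ARID1A WT, 0 for A457_G461del against Block9del and 1 for delIDR1 and DBDmut against ARID1A WT and for CBR and delIDR1 against DBDmut. Fitting only the groups compared gave 1 member for the DDX4 hybrid, A457_G461del and Block9del, 0 for AQGscram, 42YS and Block13del, and 3 for ARID1B WT, in fits that called 0.0228% (AQGscram) to 27.4% of all genes. Within sets that fit gave 7 for CBR and delIDR1 and 5 for DBDmut against ARID1A WT, 3 for CBR against delIDR1, 5 for delIDR1 against DBDmut, 6 for M2 against ARID1B WT and 2 for A457_G461del against Block9del. Ignoring strand gave 7 for the DDX4 hybrid, DESeq2 gave 3 for AQGscram, and no filter gave 5 for CBR against DBDmut. Leaving out 1 library gave 3 to 5 for delIDR1, 2 to 8 for the DDX4 hybrid, 2 to 7 for AQGscram, 3 to 6 for 42YS, 4 to 8 for A457_G461del and for Block9del, 1 to 2 for DBDmut against ARID1A WT, 0 to 2 for M2 against ARID1B WT and for 42YS against AQGscram, and 0 to 1 for A457_G461del against Block9del.

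Of the 71 pathway genes, fitting only the groups compared called 26 with ARID1A WT, 25 with CBR, 20 with delIDR1, 12 with DBDmut, 11 with the DDX4 hybrid, 0 with AQGscram, 6 with 42YS, 18 with ARID1B WT, 22 with M2, 9 with A457_G461del, 7 with Block13del and 6 with Block9del. With empty vector replicates 1 and 2 alone it was 50 for the DDX4 hybrid, A457_G461del and Block13del, 46 for AQGscram and 44 for 42YS, and under the replicate block 50 for the DDX4 hybrid and A457_G461del and 44 for AQGscram. Leaving out 1 library gave 22 to 41 with delIDR1, 13 to 34 with AQGscram, 13 to 31 with 42YS, 22 to 38 with ARID1B WT, 16 to 44 with Block13del and 14 to 38 with Block9del.

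Directions that turned with a call in at least 1 of the 2 fits were those of IGF2R with ARID1A WT (0.44), ARID1B WT (0.40) and M2 (0.34) against replicates 3 and 4, and with CBR (-0.26) and delIDR1 (-0.39) against replicates 1 and 2 and under the replicate block. IGFBP3 turned with CBR (0.17) and M2 (1.86), and IGFBP6 with delIDR1 (0.30) and AQGscram (0.30), against replicates 3 and 4. Signs also turned where neither fit made a call: with or without a call, 22 of 108 member values turned against replicates 3 and 4, 7 each against replicates 1 and 2 and under the block, 1 of 108 with strand ignored and 28 of 648 on leaving out a library. The cause was not tested. At this depth 3 reads are 0.106 to 0.196 CPM, which limits IGFBP4, IGFBP7 and, in the empty vector, IGFBP5.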
